A study of Mus musculus with 4 samples.

Results

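Oxidative phosphorylation turns the energy of NADH and succinate into ATP in the inner mitochondrial membrane. Complex I oxidises NADH, complex II oxidises succinate, complex III passes their electrons to cytochrome c, complex IV passes them on to oxygen, and complex V, the ATP synthase, uses the proton gradient that results. Most subunits are encoded in the nucleus, a few in mitochondrial DNA, and the liver, rich in mitochondria, uses the ATP for glucose, urea and lipid synthesis. Described here are the nuclear-encoded subunits, defined by gene type and symbol: protein-coding mouse genes whose symbol starts with Nduf and a subunit letter and number, with Uqcr, with Cox4 to Cox8 and a letter, or with Atp5, and Sdha to Sdhd. The rule found 87 genes among those of the RefSeq gene table, 40 for complex I, 4 for complex II, 8 for complex III, 18 for complex IV and 17 for complex V. Of these, 81 were among the 17543 genes in the deposited tables and 78 had enough reads to be tested. The rule leaves out Ndufab1 and Cyc1, which are subunits under other names, and it places Ndufa4, known as a complex IV subunit, with complex I.

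RNA was sequenced from liver of C57BL/6 mice, in 2 wild type (WT) samples and 2 samples with the K307R point mutation on both copies of Ezh2. The labels write this genotype Ezh2(K307R/K307R). Each sample is called a liver below. Ezh2 is the methyltransferase of Polycomb repressive complex PRC2. The labels give no age, sex or hour of collection and do not state whether the replicates are different mice. Each p-value here therefore sets the genotypes against the variation among these 4 samples, which may be technical. The comparison asks which transcripts differ between the genotypes.

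The libraries held 18602928 to 20044832 expected counts and 15632 to 16172 listed genes. Within each genotype the 2 libraries were distinct, with a chi-square per gene of 88.5 for the WT livers and 48.4 for the mutants where sampling alone gives about 1. Hepatocyte markers were high throughout (Alb, Apoa1, Ttr and 5 others, 142360 to 148530 CPM summed in the WT livers and 133360 to 133980 CPM in the mutants), where CPM is the read count scaled to the normalised library size. The genotypes also differed in sex-chromosome transcripts, with 6 and 6 reads of Xist in the WT livers and 6172 and 11201 in the mutants, and 0 reads of 4 Y-linked genes in both mutants. The clock gene Arntl was at 1.10 and 1.18 CPM in the WT livers and 12.3 and 23.7 CPM in the mutants. Genotype, the sex the transcripts point to and the clock state therefore cannot be told apart in any difference below.

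Transcripts of all 5 complexes were lower on average in the mutant livers, by 12% to 22% when summed over a complex, and no single member passed the test. By edgeR's quasi-likelihood test with Benjamini-Hochberg adjustment over 12837 genes, 0 of the 78 tested members were called higher and 0 lower at an adjusted p under 0.05, against 1.39% and 1.47% of all genes tested. At an unadjusted p under 0.05, 15 members were lower and 0 higher, against 8.31% and 8.5% of all genes. The fitted log2 fold change, mutant over WT, was below 0 for 77 of the 78 members, against 48.9% of all genes, and its median was -0.37 against 0.01 over all genes. Both mutant livers lay below both WT livers for 48 members, against 23.4% of all genes, and above them for 0, against 25.2%. Limma-voom called 0 members (1.11% of all genes lower, 1.19% higher), as did edgeR with the replicate number as a block (1.41% lower, 1.29% higher), and DESeq2 called 1 lower, Ndufa8, and 0 higher (3.01% and 2.94% of all genes). In a bulk sample, fewer hepatocytes and fewer transcripts per hepatocyte cannot be told apart.

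Complex V had the most reads. Its 17 members summed to 5068 and 4342 CPM in the WT livers and to 4018 and 3398 CPM in the mutants, a log2 ratio of -0.34. Complex I summed to 3591 and 2971 CPM in the WT and to 2885 and 2331 CPM in the mutants (-0.33), and complex IV to 2282 and 1939 against 1813 and 1481 CPM (-0.36). In each of these 3 complexes both mutant livers were under both WT livers, by a gap smaller than the distance between the WT livers. Complex III summed to 1669 and 1358 CPM in the WT and to 1344 and 1060 CPM in the mutants (-0.33), with WT replicate 2 and mutant replicate 1 nearly level. Complex II, whose 4 subunits also serve the citric acid cycle, had the smallest difference of the 5 on this scale. With the length trend removed complex IV (-0.13) was nearer to 0 than complex II (-0.15), and without Sdha complex II was at -0.29. Complex II summed to 1072 and 887 CPM in the WT and to 932 and 790 CPM in the mutants (-0.19), so that the genotypes overlapped. The share of complex V in the whole changed little: it supplied 37.0% and 37.8% of the members' CPM in the WT livers and 36.6% and 37.5% in the mutants. The share of complex II was higher in the mutants, at 7.83% and 7.71% in the WT against 8.48% and 8.72%. For this share, unlike the summed CPM, the genotypes did not overlap, and the gap was larger than the spread within either. Sdha has the most reads of the 4 genes, at 422.8 and 333.9 CPM in the WT and 377.3 and 361.8 CPM in the mutants. The share without Sdha was not computed, so the separation may rest on that gene.

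**Figure D1:**
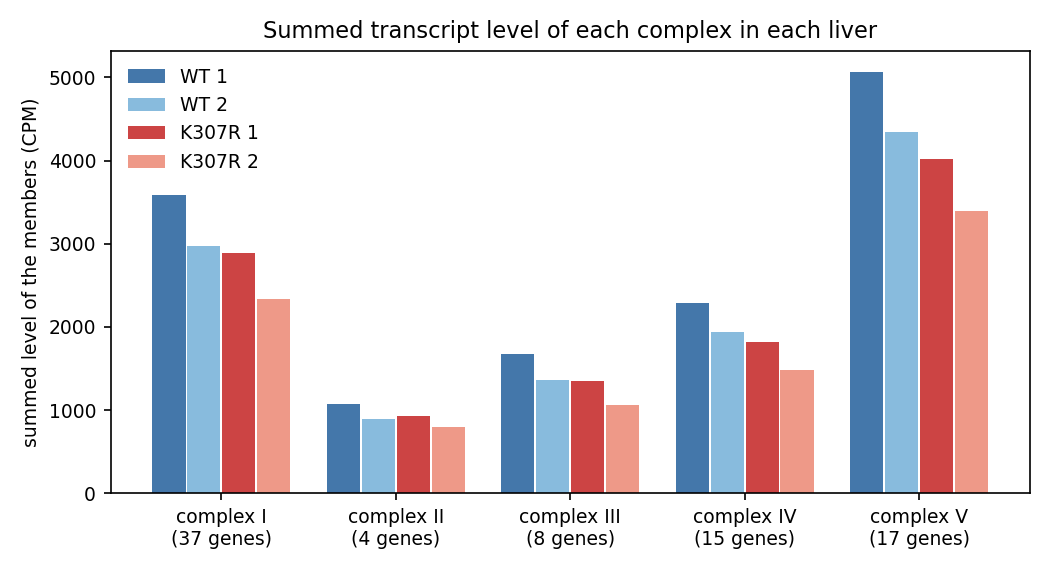
Bars give the CPM summed over the members of each complex in each of the 4 livers (WT in blue, Ezh2 K307R in red). WT replicate 1 is highest and mutant replicate 2 lowest in every complex, and WT replicate 2 and mutant replicate 1 lie close together.

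Replicates of 1 genotype also differed. Over the 78 members the median log2 difference was -0.26 between WT replicate 2 and WT replicate 1, with 67 members lower in replicate 2, and -0.33 between mutant replicate 2 and mutant replicate 1, with 77 members lower. Between genotypes, mutant replicate 1 differed from WT replicate 2 by a median of -0.08, with 50 members lower in the mutant, and from WT replicate 1 by -0.34, with 74 lower. Mutant replicate 2 differed from WT replicate 2 by -0.43, with 73 lower, and from WT replicate 1 by -0.67, with all 78 lower. The 4 differences between genotypes thus ran from smaller to larger than those within a genotype. Without WT replicate 1 the median fitted log2 fold change of the members was -0.23, without mutant replicate 2 it was also -0.23, without WT replicate 2 it was -0.50 and without mutant replicate 1 it was -0.53. As a share of reads, without that scaling, the WT livers were closer: the members held 1.23% and 1.21% of all reads in the WT livers, against 1.11% and 0.945% in the mutants. On total-count scaling the median was -0.29, where that over all genes was 0.09.

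Transcript length moved with these values. The members are short, with a median length of 700 bases against 2809 over all genes tested, and 57 of the 78 are among the shortest 10% of all genes, the first decile of length (up to 1151 bases). The 1227 other genes of that decile had a median log2 fold change of -0.19, with 68.0% below 0, and the median went up step by step to 0.10 in the longest decile. Mutant replicate 2 showed this trend most. Its median deviation from the mean of the 4 livers was -0.21 in the shortest decile and 0.14 in the longest, while in mutant replicate 1 it was 0.04 and -0.06. The members lay below other genes of like length: their median was -0.40 in the shortest decile and -0.38 in the next, where the other genes were at -0.08. After a smooth trend on length was removed from each liver, the median of the members was -0.19 against -0.01 over all genes. Then 63 of 78 were below 0, against 50.8% of all genes, and 5 were lower at an unadjusted p under 0.05 (Ndufa8, Ndufa5, Ndufc2, Cox7a1 and Cox7a2), and 0 higher, against 8.72% and 8.27% of all genes, so that the share of the members was no higher than the background. Complex IV moved most, from -0.36 to -0.13 for its summed level.

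**Figure D2:**
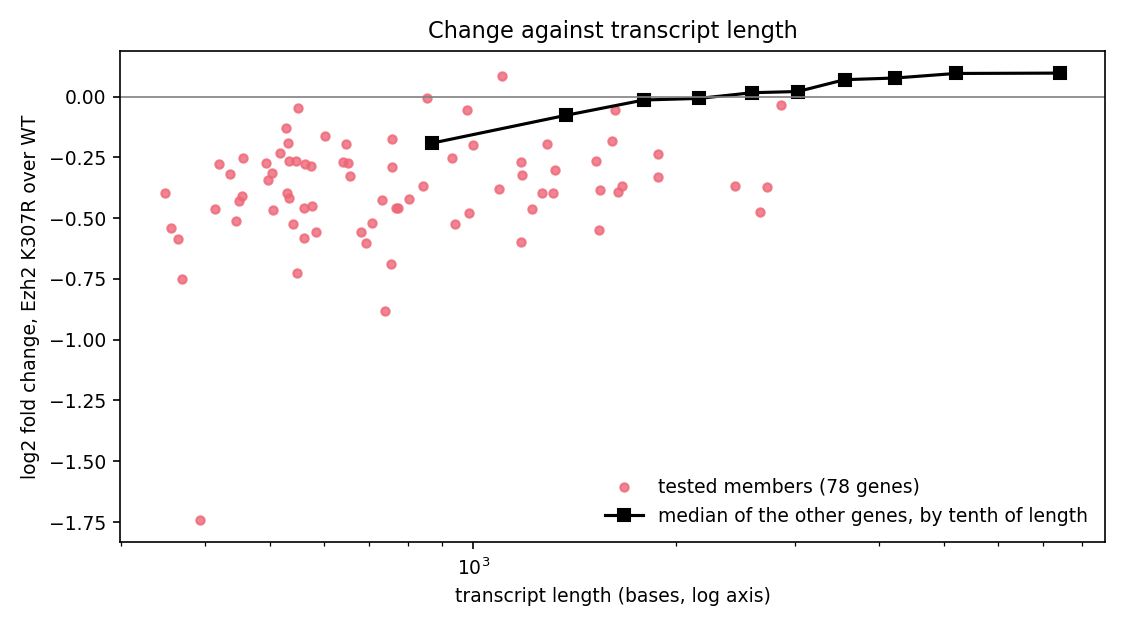
Fitted log2 fold change (mutant over WT) against transcript length in bases on a log axis, for the 78 tested members (red points) and as the median of all other genes in each decile of length (black squares). The other genes run from -0.19 in the shortest decile to 0.10 in the longest, and most members lie below the line.

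**Figure D3:**
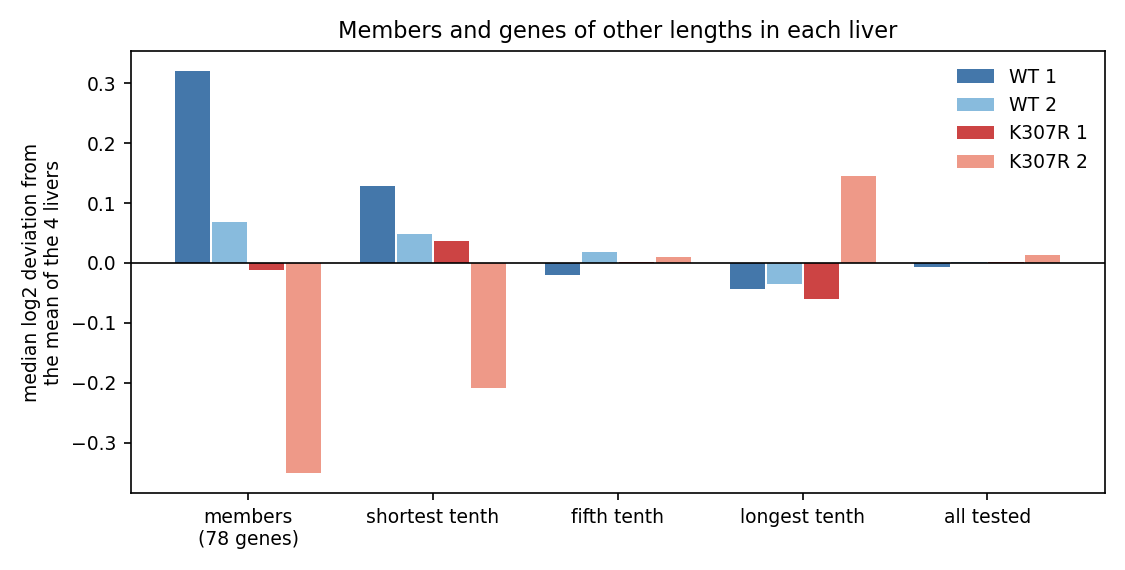
Median log2 deviation of a liver from the mean of the 4 livers, for the members, for 3 deciles of gene length and for all genes tested. The members are at 0.32 and 0.07 in the WT livers and at -0.01 and -0.35 in the mutants, and the shortest decile shows the same order at a smaller size.

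Complex I showed both the largest difference of a well-expressed member and some of the smallest. Ndufa8, an accessory subunit on the intermembrane face (Entrez gene 68375, chromosome 2 from 36036324 to 36049338, GRCm38, the assembly of mm10), was at 99.1 and 107.7 CPM in the WT livers and at 62.1 and 50.3 CPM in the mutants. The genotypes did not overlap, and the gap was larger than the spread within either. The log2 fold change was -0.88 (SE 0.20, 95% interval -1.34 to -0.42) with an edgeR adjusted p of 0.0625, and -0.69 with the length trend removed. Under DESeq2 its adjusted p was 0.00647, and without a filter on low counts edgeR gave 0.0283, a setting with 1 member called lower and 0 higher against 2.4% and 2.35% of all genes.

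Ndufa5, an accessory subunit of the arm that reaches into the matrix, was at 54.8 and 48.6 CPM in the WT and at 37.6 and 24.9 CPM in the mutants (log2 fold change -0.73, SE 0.24, edgeR adjusted p = 0.173). Ndufc2, of the membrane arm, was at 86.6 and 77.3 CPM in the WT and at 59.5 and 48.4 CPM in the mutants (-0.60, SE 0.20, adjusted p = 0.172). Ndufa12, an accessory subunit of the matrix arm, was at 76.2 and 64.8 CPM in the WT and at 50.7 and 43.5 CPM in the mutants (-0.58, SE 0.19, adjusted p = 0.182). All 3 were lower in both mutants than in both WT livers and none passed the adjusted threshold. The 28 accessory subunits, which surround the catalytic core, ran from -0.88 to -0.01 with a median of -0.40, and of -0.15 with the length trend removed. For 16 of the 28 both mutant livers lay below both WT livers, against 23.4% of all genes.

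In complex II the flavoprotein Sdha, which binds and oxidises succinate, was at 422.8 and 333.9 CPM in the WT and at 377.3 and 361.8 CPM in the mutants. Both mutants lay between the WT livers, and the log2 fold change was -0.03 (95% interval -0.58 to 0.51). Its sign turned with upper-quartile scaling (0.01) and without WT replicate 1 (0.15). The iron-sulfur subunit Sdhb was at 244.0 and 197.7 against 200.2 and 138.9 CPM, with overlap (-0.38, SE 0.25, edgeR adjusted p = 0.512). The membrane anchor Sdhc was at 246.2 and 226.8 against 213.8 and 179.3 CPM, without overlap (-0.27, SE 0.22), and the other anchor, Sdhd, was at -0.19 (SE 0.22).

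The 8 members of complex III lay within a narrow band, from -0.51 to -0.27. Uqcr10, a small subunit, was at 100.5 and 81.5 CPM in the WT and at 63.2 and 64.4 CPM in the mutants, without overlap (-0.51, SE 0.19, edgeR adjusted p = 0.236). The Rieske iron-sulfur protein Uqcrfs1, which takes the electrons from ubiquinol, was at 173.3 and 147.0 against 131.8 and 111.8 CPM (-0.39, SE 0.21), and the core protein Uqcrc1 at 236.4 and 234.0 against 196.9 and 167.5 CPM (-0.37, SE 0.21). For neither gene did the genotypes overlap. With the length trend removed, the 3 core members Uqcrc1, Uqcrc2 and Uqcrfs1 had a median of -0.33 and the 5 small ones a median of -0.06, where before they were at -0.37 and -0.31. The 5 small subunits have a median length of 503 bases against 1665 for the 3 others.

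Complex IV held the widest range of log2 fold changes, from -1.74 to 0.09, through Cox7a1 alone. Its next lowest member, Cox7a2, was at -0.69, where complex I ran from -0.88 to -0.01. Several subunits of complex IV exist in a ubiquitous or liver form and a form of heart, muscle or testis. Cox7a1, the heart and muscle form of subunit VIIa (Entrez gene 12865, chromosome 7 from 30184171 to 30186030), had 26 and 46 reads in the WT and 13 and 8 in the mutants, or 1.5 and 2.2 against 0.7 and 0.4 CPM. It was the 1 member more than 2-fold lower in the fit (log2 fold change -1.74, SE 0.49, 95% interval -2.88 to -0.60, edgeR adjusted p = 0.12), on few reads. Its liver partner Cox7a2 was at 130.8 and 97.8 against 81.9 and 59.9 CPM, without overlap (-0.69, SE 0.24, adjusted p = 0.197). Cox7a1 made up 2.26% and 4.29% of the FPKM of the pair in the WT livers and 1.67% and 1.35% in the mutants, where FPKM is the deposited level per transcript length and library size. Striated muscle markers were near 0 in every liver: the 10 genes summed to 0.41 and 0.38 CPM in the WT and to 0.42 and 0.15 CPM in the mutants, and Ckm, Myh6, Myh4, Tnnt3 and Mb were not in the tables.

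The other tissue forms were barely detected. Cox4i2, the lung form of subunit IV, had 3 and 9 reads in the WT and 2 and 2 in the mutants, against 3830 to 5353 reads of Cox4i1 (99.8% to 100% of the FPKM of the pair). Cox6a2, the heart form of subunit VIa, had 1 and 1 reads in the WT and 0 and 0 in the mutants, where 0 reads allow up to 3, or 0.159 and 0.153 CPM, and Cox6b2, the testis form of VIb, had 2, 1, 0 and 6. Such counts do not resolve a difference between genotypes at this depth. Cox7b2, Cox8b and Cox8c, and in complex I Ndufb1, Ndufb4b and Ndufb4c, were not in the tables and were not analysed here. The liver carried the ubiquitous forms: Cox6a1 at 307.01 and 273.0 CPM in the WT and 242.3 and 240.0 CPM in the mutants (log2 fold change -0.27, SE 0.21), Cox6b1 at 252.6 and 224.2 against 189.7 and 155.4 CPM (-0.47, SE 0.22), Cox8a at 260.4 and 228.1 against 223.5 and 183.5 CPM (-0.26, SE 0.22) and Cox4i1 at 262.6 and 253.4 against 261.7 and 195.9 CPM (-0.17, SE 0.23). The first 3 did not overlap between the genotypes, and Cox4i1 did.

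Cox5b, which binds zinc on the matrix side, was at 228.6 and 212.4 CPM in the WT and at 163.0 and 136.4 CPM in the mutants, without overlap (-0.56, SE 0.21, edgeR adjusted p = 0.24). Cox7a2l was the 1 tested member with a fitted value above 0. It was at 99.3 and 80.8 CPM in the WT and at 106.9 and 84.4 CPM in the mutants (0.09, 95% interval -0.41 to 0.58), and its sign turned without WT replicate 2 (-0.06) or mutant replicate 1 (-0.09). Ndufa4, the complex IV subunit with a complex I name, was at 328.1 and 218.6 against 257.3 and 195.6 CPM, with overlap (-0.27, SE 0.28), and its paralogue Ndufa4l2 held 0.214% to 0.506% of the FPKM of that pair.

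**Figure D4:**
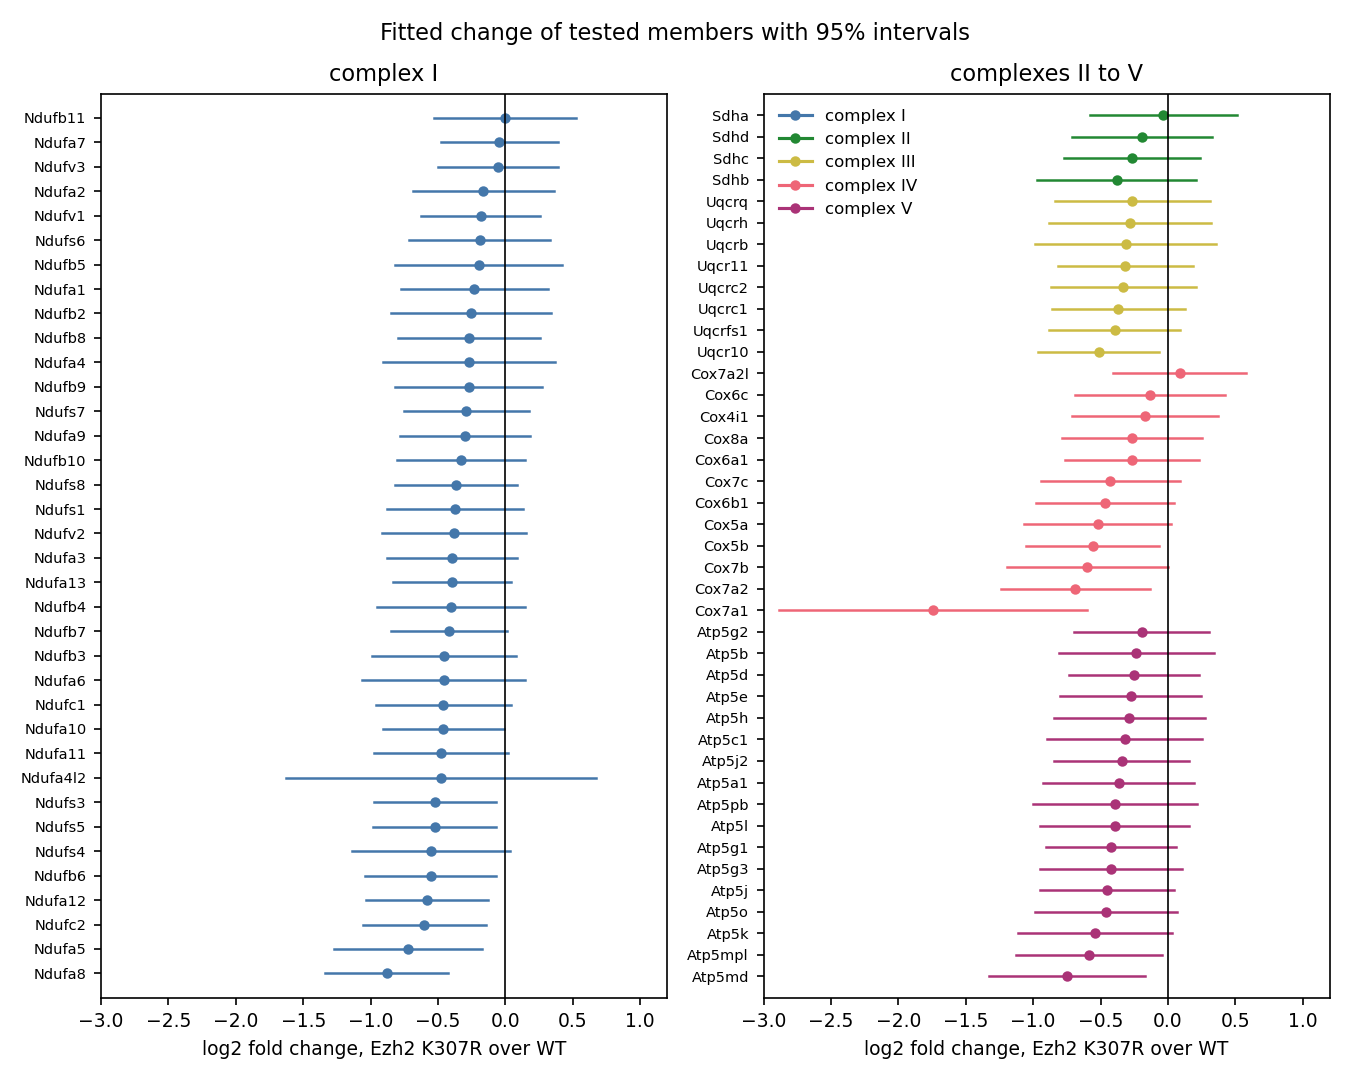
Fitted log2 fold change (mutant over WT, points) and its 95% interval (lines) for 77 of the 78 tested members, complex I on the left and complexes II to V on the right, coloured by complex. All points but that of Cox7a2l lie below 0, and most intervals include 0.

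In complex V the 5 subunits of the F1 head lay between -0.37 and -0.23. The catalytic beta subunit Atp5b was the member with the most reads, at 1172 and 1048 CPM in the WT and at 1013 and 875 CPM in the mutants (log2 fold change -0.23, SE 0.25, edgeR adjusted p = 0.702). The alpha subunit Atp5a1 was at 989 and 855 against 739 and 691 CPM (-0.37, SE 0.24). Both genes were lower in both mutants than in both WT livers, by less than their 95% intervals resolve. The 5 small subunits of the membrane part had a median of -0.54, and all 5 were lower without overlap, against 23.4% of all genes. Among them Atp5md, which helps ATP synthase dimers to hold, was at 170.7 and 113.5 CPM in the WT and at 93.2 and 75.9 CPM in the mutants (-0.75, SE 0.25, edgeR adjusted p = 0.183), the small proteolipid Atp5mpl at 64.9 and 51.4 against 45.4 and 32.1 CPM (-0.59, SE 0.23) and Atp5k, subunit e, at 77.1 and 58.9 against 55.8 and 37.7 CPM (-0.54, SE 0.25). These 5 genes are short, with a median of 370 bases, and with the length trend removed their median was -0.20, next to -0.23 for the F1 head. Atp5j, coupling factor F6 of the peripheral stalk, was at 170.6 and 149.6 against 130.3 and 103.8 CPM (-0.45, SE 0.21).

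Subunit c, which forms the rotor ring, is encoded by a trio of genes whose mature proteins are identical. Atp5g3 gave 43.4% and 38.3% of their FPKM in the WT livers and 38.8% and 39.2% in the mutants, Atp5g1 29.0% and 31.1% against 28.0% and 29.4%, and Atp5g2 27.7% and 30.5% against 33.2% and 31.4%. The share of Atp5g2 was higher in both mutants than in both WT livers, by less than the distance between the WT livers. Its own level was at 149.2 and 156.8 CPM in the WT and at 151.0 and 116.3 CPM in the mutants (log2 fold change -0.20, SE 0.22), while Atp5g1 (-0.42, SE 0.21) and Atp5g3 (-0.43, SE 0.23) did not overlap between the genotypes.

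Compared per length, the subunits of a complex were not at equal levels. On the FPKM scale, as the mean of the 4 livers, complex II was the most even, from 105 (Sdhd) to 185 (Sdhc). Complex III ran from 107 (Uqcrfs1) to 367 (Uqcrb), complex V from 143 (Atp5mpl) to 544 (Atp5b), and complex IV, without Cox7a1 and the forms too low to test, from 84.9 (Cox7a2l) to 522 (Cox6a1). Complex I, without Ndufa4l2, had the widest range, from 19.3 (Ndufa11) to 532 (Ndufa4), with Ndufa6 at 234 and Ndufa3 at 221. Its 28 accessory subunits had a median of 100 FPKM. Across the 78 members the log2 fold change went with log2 FPKM at r = 0.37 and with log2 length at r = 0.26, both over genes of the same 4 libraries. Both values include Cox7a1 (3.3 FPKM, log2 fold change -1.74) and Ndufa4l2 (1.9 FPKM, -0.48), which were left out of the ranges above. Cox7a1 lies far from the other members in fold change, and r without it was not computed. The r for FPKM may therefore rest on that gene.

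Of the 81 members in the tables, 67 were listed with 1 RefSeq transcript. Of the 14 others, 6 had at least 2 variants with 10% or more of the FPKM of the gene in some liver. Ndufv3, an accessory subunit at the NADH-binding end of complex I, had a long variant of 1594 bases that held 14.5% and 17.3% of its FPKM in the WT livers and 22.3% and 22.2% in the mutants. The genotypes did not overlap and the gap was larger than the spread within either. Reads of the long variant were 480 and 613 in the WT and 716 and 614 in the mutants, those of the short variant of 502 bases 847 and 876 against 744 and 644. Genes of the shortest length decile were lower mainly in mutant replicate 2 (median deviation -0.21, against 0.04 in mutant replicate 1). The part of that trend in the share of the variants was not tested. The variants of Atp5g1, Atp5g3, Atp5j, Ndufs1 and Ndufs8 did not separate the genotypes by more than a few percentage points or varied as much within a genotype; for Ndufs1 the main variant held 82.6% and 70.9% against 76.7% and 45.8%.

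There were 3 X-linked members. Cox7b, a small subunit of complex IV, was at 232.8 and 151.6 CPM in the WT and at 136.6 and 117.2 CPM in the mutants, without overlap (log2 fold change -0.60, SE 0.26, edgeR adjusted p = 0.296). Ndufb11, which lies in the membrane arm of complex I, was at 166.3 and 121.7 against 150.7 and 136.1 CPM (-0.01, SE 0.23), and Ndufa1 at 37.2 and 25.1 against 28.2 and 24.8 CPM (-0.23, SE 0.24), both with overlap.

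Promoter sequence of the members was read from RefSeq (GRCm38.p6, 250 bases before to 50 after the start), which held 65 of the 78 tested members and 10240 of the 12837 tested genes. Words of factors known to drive mitochondrial genes were searched on both strands. A gene with several listed starts was counted once, if any of its promoters held the word. The NRF1 word, given by the capitals in the first 2 lines below and equal to its own reverse complement, was in 5 of the 65 (7.69%) against 2.28% of all genes, the YY1 word AAGATGGCG in 7 (10.8%) against 3.52%, the ERR word TCAAGGTCA in 2 (3.08%) against 0.322%, the ETS word CCGGAAG in 17 (26.2%) against 19.4%, and the GC box GGGCGG in 26 (40%) against 66.5%. Words of different factors overlapped in 1 member promoter, an ETS word and a GC box in Ndufs3. The median log2 fold changes of members with and without a word lay within 0.1 of each other: they were -0.37 with and -0.40 without the NRF1 word, -0.34 and -0.40 for YY1, -0.38 and -0.40 for ETS, -0.40 and -0.37 for the GC box, and -0.31 and -0.40 for ERR, where only 2 members hold the word. The NRF1, ERR and YY1 matches that lie before the start are shown as examples of words more frequent in the members than in all genes, each held by few members, with the word in capitals and 30 bases on each side, on the strand of the gene. A match describes letters only and is not evidence of binding.
Ndufa11, chr17:56717672-56717741, plus strand: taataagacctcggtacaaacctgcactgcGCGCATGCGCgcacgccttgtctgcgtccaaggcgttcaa
Cox6a1, chr5:115349081-115349150, minus strand: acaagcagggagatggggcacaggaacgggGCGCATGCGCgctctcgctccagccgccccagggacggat
Atp5g3, chr2:73911340-73911408, minus strand, with the ERR word on the opposite strand: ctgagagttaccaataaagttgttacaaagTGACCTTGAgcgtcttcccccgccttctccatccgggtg
Atp5j, chr16:84835026-84835094, minus strand, 1 of 2 listed starts, with the YY1 word: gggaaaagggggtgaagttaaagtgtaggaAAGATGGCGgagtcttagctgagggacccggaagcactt

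Relative to the RefSeq start, the NRF1 word begins 60 bases before it in Ndufa11, 50 in Atp5k, 42 in Atp5g2 and 162 in Cox6a1. The stretches of Atp5g2 and Atp5k hold 70 and 39 bases of a UTR of GENCODE vM21, over the limit of 30, and are not printed. That of Ndufa11, which is printed, holds 14 such bases. The fitted values of the 4 members with the NRF1 word before the start span -0.54 (Atp5k) to -0.20 (Atp5g2). The ERR word begins 52 bases before the listed start of Atp5g3, a start that is 1138 bases inside the gene as the RefSeq gene table bounds it, and the YY1 word 88 bases before the inner of the 2 listed starts of Atp5j, which is 881 bases inside that gene. The other 6 YY1 matches lie after the start.

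The rest of the pathway was read from lists of assembly factors, carriers, citric acid cycle enzymes and regulators. Over all genes tested 1.39% were called higher and 1.47% lower, the share to set beside the counts called in each list below. Among 17 assembly factors of complex I, 1 was called lower and 0 higher. This was Ndufaf4, at 45.1 and 39.5 CPM in the WT and at 19.6 and 20.0 CPM in the mutants (log2 fold change -1.09, SE 0.19, edgeR adjusted p = 0.0296), a transcript of 3632 bases for which the value with the length trend removed was -1.17. Its call was lost without mutant replicate 1 (0.0933) or mutant replicate 2 (0.0959). The list median was -0.24, and -0.11 with the length trend removed. Of the assembly factors of complexes II (4 tested), III (6), IV (25) and V (5), 0 were called, with medians of -0.25, -0.20, -0.18 and -0.13. With the length trend removed these medians were -0.16, -0.15, -0.08 and -0.03. In complex IV, Sco2, a copper chaperone, was at 22.1 and 12.6 against 33.1 and 49.0 CPM (1.24, SE 0.31, adjusted p = 0.0845), against the direction of the subunits, and Higd1a at 37.4 and 30.8 against 21.1 and 17.4 CPM (-0.82, SE 0.21, adjusted p = 0.0889).

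Cycs, cytochrome c itself, was at 258.6 and 189.1 CPM in the WT and at 127.2 and 102.3 CPM in the mutants, without overlap (log2 fold change -0.96, SE 0.24, edgeR adjusted p = 0.0882), and at -1.01 with the length trend removed. All 7 genes of the list of cytochrome c, adenine nucleotide and phosphate carriers and porins were below 0, with a median of -0.43 and 0 called. Slc25a4, the heart and muscle form of the adenine nucleotide carrier, was at 8.16 and 19.3 against 4.30 and 4.09 CPM (-1.71, SE 0.40, adjusted p = 0.0677). Of 18 genes of the citric acid cycle and pyruvate dehydrogenase, 15 were below 0 and 0 were called, with a median of -0.26, and of -0.29 with the length trend removed. Fumarate hydratase Fh1 was at 185.6 and 148.0 against 105.6 and 88.8 CPM (-0.78, SE 0.22, adjusted p = 0.117) and Pdhb, of pyruvate dehydrogenase, at 245.0 and 178.8 against 130.7 and 83.9 CPM (-0.98, SE 0.28, adjusted p = 0.124).

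Regulators of mitochondrial biogenesis had no common direction. Of 19 tested, 10 were below and 9 above 0, 0 were called and the median was -0.03. Esrra, the orphan receptor that switches on genes of respiration, was at 34.4 and 32.8 CPM in the WT and at 21.7 and 17.0 CPM in the mutants (log2 fold change -0.80, SE 0.20, edgeR adjusted p = 0.0919), and its relative Esrrg at 1.45 and 0.757 against 2.28 and 8.03 CPM (2.24, SE 0.63, adjusted p = 0.119). Of 8 genes of uncouplers and other dehydrogenases that feed ubiquinone, 5 were below 0, 3 above and 0 called (median -0.12). The 2 with the smallest p were higher in both mutants than in both WT livers. Etfdh was at 171.2 and 114.7 against 183.2 and 268.4 CPM (0.66, SE 0.29, edgeR adjusted p = 0.299). Ucp2 was at 23.0 and 33.3 against 36.4 and 37.5 CPM (0.39, SE 0.23). Subunits outside the symbol rule were Cyc1, cytochrome c1 of complex III (-0.45, SE 0.21), and Ndufab1, the acyl carrier protein of complex I (-0.33, SE 0.19). The same list held Dmac2 (0.33) and Dmac2l (0.21), and it had 0 calls. The 13 mitochondrially encoded subunits were not in the tables and were not analysed here.

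Markers of other liver cells moved in part with the genotype. Calls among them stand beside 1.39% called higher and 1.47% called lower over all genes tested. Summed over 7 genes each, Kupffer cell markers were at 149 and 182 CPM in the WT and at 304 and 201 CPM in the mutants (6 of 7 fitted above 0), sinusoidal endothelial markers at 70.5 and 98.2 against 99.9 and 114 CPM (6 of 7), and stellate cell markers at 105 and 171 against 288 and 226 CPM (6 of 7, with Dcn and Colec11 called higher and Col1a1 lower). Erythroid markers were at 437 and 553 against 674 and 771 CPM (4 of 5 tested, with Alas2 called lower), bile duct markers at 6.42 and 7.81 against 7.27 and 11.9 CPM (3 of 5), and lymphoid markers at 6.13 and 7.67 against 8.38 and 5.42 CPM (3 of 6). Of the 8 hepatocyte markers 2 were fitted above 0, with a median of -0.31. Brown fat markers were at 45.0 and 41.5 against 17.1 and 39.6 CPM, nearly all from Plin5 and Elovl3, which hepatocytes also express, with Plin1 not in the tables, and white fat markers at 1.10 and 1.94 against 0.531 and 1.48 CPM, with Plin1 and Lep not in the tables. The part of these cell markers in the lower level of the members was not tested.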

How the data were processed

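Expected counts, the estimated counts of RSEM per RefSeq transcript, were deposited without normalization, per the file headers, and FPKM were scaled by the authors to length and depth. The submitters' processing notes name HISAT, Bowtie2, RSEM and the mm10 build; tool versions, and whether counting used strand, were not given in the sources used here. Counts were summed per Entrez gene, rounded and named from RefSeq's GRCm38.p6 table (17502 of 17543 genes). RSEM divides reads between near-identical copies, and many subunit genes have processed pseudogenes, so single values carry that uncertainty.

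The main fit was edgeR 4.0.16 in R 4.3.3 (quasi-likelihood, TMM factors 0.896 to 1.055, filterByExpr, genotype alone, 2 residual degrees of freedom, Benjamini-Hochberg over 12837 genes, threshold 0.05). DESeq2 1.42.0, limma 3.58.1 (voom, and log2 of FPKM plus 1 or 0.1 at a mean FPKM of at least 1 in either genotype), other scalings and filters, the replicate number as a block and leave-one-out were alternatives. Gene length was the read-weighted transcript length, and the length alternative used a loess fit with span 0.3. Medians of log2 CPM per liver used a pseudocount of 0.5. Python 3.11.15 with pandas 2.3.3 was used.

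Members, lists and roles were chosen with earlier results of these data known. Named members are, per complex, the up to 4 with the smallest p and the 3 with the highest FPKM, the tissue forms with their partners and the subunit c genes. From each pathway list come the members called, or the 2 with the smallest p. No gene is named from the assembly lists of complexes II, III and V. Others named were chosen after their values were seen. Of 202 list symbols 1 matched no gene. A result for 1 complex I gene is not reported here; the gene stays in counts, sums and medians over all members.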

Additional observations from a re-analysis of the deposited data

How the results depend on the processing

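With RLE, upper-quartile and total-count scaling, limma-voom, limma on log2(FPKM + 1) and log2(FPKM + 0.1), a mean of at least 1 CPM, the length trend removed, and without each liver, 0 members were called in either direction. DESeq2 and edgeR with no filter called 1 lower, Ndufa8 in both. The median log2 fold change of the members ran from -0.53 to -0.23 without single livers and from -0.38 to -0.19 over the other settings. Summed complexes without single livers ran from -0.49 to -0.19 (I), -0.32 to -0.04 (II), -0.51 to -0.17 (III), -0.51 to -0.22 (IV) and -0.47 to -0.23 (V). Complex IV was at -0.129 with the length trend removed.

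With the length trend removed the sign of 14 members turned, none of them called: Ndufa7 (0.22), Ndufb11 (0.17), Cox6c (0.13), Ndufv3 (0.08), Ndufa2 (0.08), Ndufs6 (0.07), Ndufa1 (0.05), Ndufb2 (0.04), Atp5e (0.02), Atp5g2 (0.0206), Cox6a1 (0.0159), Ndufa4 (0.0142), Cox4i1 (0.00818) and Uqcr11 (0.00167). Of the members named by the rule in the methods, the sign also turned for Sdha with upper-quartile (0.00764) or total-count scaling (0.0557) and on log2(FPKM + 1) (0.0573) and log2(FPKM + 0.1) (0.0577). Without single livers it turned, again among the members so named, within the ranges of Sdha (-0.199 to 0.146), Ndufa4 (-0.539 to 0.0507), Uqcrh (-0.529 to 0.0155), Cox7a2l (-0.0943 to 0.248), Cox4i1 (-0.396 to 0.0219), Ndufa4l2 (-1.28 to 0.0397) and Uqcrb (-0.721 to 0.0039). The cause was not tested.

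With the replicate number as a block, 0 members were called and the median was -0.37; over all genes it called 166 higher and 181 lower, against 178 and 189 without it. Over all genes tested, livers with the same number did not deviate together (correlation -0.0027). Over the 78 members replicate 2 was below replicate 1 by a median of -0.26 in the WT and -0.33 in the mutants. These shifts are another measure than the correlation, which was not computed over the members. Whether the numbers pair the livers cannot be told from these values. With 2 livers a genotype the median 95% interval of a member reached 0.52 on the log2 scale to each side, and the intervals of 15 of the 78 excluded 0 before adjustment.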
